A study of Mus musculus with 12 samples.

Results

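C2H2 zinc finger genes of the Zfp, Zbtb, Zkscan and Zscan symbol families were followed in RNA-seq data from GC1, an immortalised mouse line of spermatogonial origin, across 12 libraries. They were chosen by symbol prefix, leaving out Zfp36 and its relatives, which encode RNA-binding proteins with another kind of finger, and by a level of at least 1 FPKM in at least 3 libraries. FPKM counts fragments relative to transcript length and to the size of the library. The deposited table of 2281 genes held 42 such symbols, of which 36 passed the level filter: 30 of 34 Zfp, 4 of 4 Zbtb, 2 of 4 Zscan and 0 Zkscan symbols. The 4 groups held 3 libraries each, all labelled 24 h: Ythdf2 knockout cells overexpressing Setdb1 (Ythdf2-koOE-setdb1, here Setdb1 OE), knockout cells with an overexpression control (Ythdf2-ko-OE-CTR, here OE control), unmodified knockout cells (Ythdf2-ko) and wild-type cells (WT). All 3 knockout groups therefore carry the Ythdf2 knockout, and their titles share 1 line code, so an effect of the knockout cannot be told apart from other differences between that line and wild type. What the control construct was, which promoter drove Setdb1 and whether the line was 1 clone are not stated in the labels. Nothing says whether libraries of a group came from separate cultures, so p-values measure the spread between these libraries, which may be technical.

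C2H2 zinc finger proteins bind DNA through tandem fingers, each folded around a zinc ion. In mammals many of them carry a KRAB box, which recruits TRIM28 (KAP1), and TRIM28 in turn brings the histone H3K9 methyltransferase SETDB1 to silence retrotransposons and imprinted regions. Other members carry a SCAN domain, through which they pair with each other, or a BTB domain, which pairs and often recruits corepressors. YTHDF2 binds m6A-modified RNA and promotes its decay. The series concerns both proteins in DNA damage repair of spermatogonia.

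In the targeted gene, Ythdf2 stood at 5.79, 6.07 and 6.28 FPKM in knockout libraries, against 8.51, 9.33 and 9.15 FPKM in wild type, so its transcript was lower and not lost. It stood at 4.67, 4.99 and 4.23 FPKM with Setdb1 OE, against 6.14, 6.24 and 6.04 FPKM in the OE control. Setdb1 was looked up by symbol and not found among the 2281 genes of the table, so its overexpression rests on the labels alone. Spermatogonial markers were represented by 6 of 25 listed genes: Itga6, Cd9, Bcl6b, Etv5, Foxo1 and Taf4b. Their summed level was 72.9 to 79.9 FPKM with Setdb1 OE and 85.3 to 88.8 FPKM in the OE control. It was 77.5 to 80.3 FPKM in knockout libraries and 121 to 122 FPKM in wild type. Most of each sum was Cd9, at 50.2, 50.1 and 47.8 FPKM in knockout libraries, against 85.3, 84.8 and 84.5 FPKM in wild type. Itga6, Bcl6b and Etv5 were also lower in knockout libraries, and Taf4b overlapped. Foxo1 was higher there, at 6.08, 5.67 and 6.04 FPKM, against 4.76, 4.65 and 4.56 FPKM in wild type. The other listed markers, among them the defining markers Zbtb16, Gfra1, Ddx4 and Dazl, were not found in the table. Of 10 markers of testis somatic cells, Sox9 and Gata4 were in the table, at 7.46 to 9.65 FPKM together. Sox9 stood at 0.53, 0.692 and 0.599 FPKM in knockout libraries, against 2.05, 1.97 and 1.72 FPKM in wild type, and Gata4 at 8.51, 8.4 and 9.05 FPKM in knockout libraries, against 6.71, 6.96 and 6.91 FPKM in wild type. Transcripts of blood cells were high in 4 libraries, set apart by a haemoglobin mean of at least 10 FPKM and not by their labels. Of the listed markers, 4 of 8 for red cells and 3 of 7 for neutrophils and platelets were in the table. The mean of 4 haemoglobin genes reached 150 FPKM in knockout library 1, 45.1 FPKM in knockout library 2, 128 FPKM in wild-type library 2 and 51.2 FPKM in wild-type library 3, and at most 1.28 FPKM in the other 8. S100a8 and S100a9, expressed in neutrophils, and Pf4, of platelets, were high in the same 4, with S100a9 at 17.8 to 25.2 FPKM there and at most 1.39 FPKM in the other 8. All 2281 deposited genes had been marked significant by the authors, so the shares of changed genes below describe a preselected table and not the transcriptome. Read depth is unknown.

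The 36 zinc finger genes were mostly expressed at low levels. Their mean over the 12 libraries ran from 1.01 FPKM (Zfp438) to 29.5 FPKM (Zfp385a), with a median of 4.56 FPKM, against a median of 11 FPKM over all 2063 tested genes. Of the 36, 21 averaged under 5 FPKM and 3 averaged at least 20 FPKM: Zfp385a, Zfp91 (23.4 FPKM) and Zfp207 (23 FPKM). Just inside the filter, Zfp449 reached 1 FPKM in 7 libraries and Zfp438 and Zfp750 in 8. These 3 genes lay under 1 FPKM in all 3 wild-type libraries and passed through the knockout groups. Just outside it, Zfp40 reached at most 0.895 FPKM; Zfp287, Zfp296, Zfp69, Zscan4-ps3 and Zscan4f were also left out. Zscan4f and the pseudogene Zscan4-ps3 belong to a cluster of near-identical copies, between which FPKM values cannot place shared reads.

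In the longest open reading frame of each gene in GENCODE M21, a C2H2 finger pattern (2 to 4 residues between the cysteines, 12 between the last cysteine and the first histidine, 3 to 5 between the histidines) occurred 37 times in Zfp142, 34 times in Zfp462 and 30 times in Zfp646. It occurred 0 times in Zfp750 and 1 time in Zfp704. Of the 42 symbols, 31 had 5 or more fingers, as did 15 of the 2239 other genes of the table. A KRAB box pattern was found in 11 of the 42, and in 1 other gene of the table. Of these 11, 8 passed the level filter: Zfp101, Zfp266, Zfp354a, Zfp445, Zfp791, Zfp90, Zfp945 and Zfp952. A SCAN pattern was found in 5 that passed: Zscan21, Zscan22, Zfp213, Zfp444 and Zfp449. In GENCODE M21, 23 of the 36 genes overlap another annotated gene, 6 of them on the same strand. The library strand is not stated, so reads of such pairs cannot be told apart.

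Differences are given as log2(FPKM + 1), the first named group minus the other, tested with limma-trend over all 2063 tested genes of the table with Benjamini-Hochberg adjustment, and a gene is said to have risen or fallen where its adjusted p is under 0.05. In the knockout against wild type, 16 of the 36 zinc finger genes rose and 5 fell, while 37.8% of all tested genes rose and 39.5% fell. The 16 include Zfp438 and Zfp750, which met the level filter only through the knockout groups. Their inclusion thus depended on being higher there. The median difference was 0.11 for the zinc finger genes and -0.01 for all tested genes. With Setdb1 OE against the OE control, 18 rose and 7 fell, while 36.1% of all tested genes rose and 31.8% fell; the medians were 0.12 and 0.02. In the OE control against the unmodified knockout, 0 rose and 1 fell in limma-trend, where 3.64% of all tested genes rose and 5.04% fell, with medians of -0.03 and 0; at an unadjusted p under 0.05 the counts were 1 and 4, and limma without the trend also called 0 and 1. The differences were small in size: the median absolute difference was 0.25 in the knockout and 0.23 with Setdb1 OE, against 0.26 and 0.20 over all tested genes. Of the knockout libraries 2 of 3, and of the wild-type libraries 2 of 3, carried blood cell RNA; without these 4 libraries, which leaves 1 library in each of the 2 groups and takes their spread from the others, 9 of the 36 zinc finger genes rose and 5 fell in the knockout, while 25.8% of all tested genes rose and 28.8% fell, so the share that rose was then near that of all tested genes. With all 12 libraries and a term for those with blood cell RNA, 16 rose and 5 fell in the knockout. In that fit 771 of the 2063 tested genes rose and 816 fell. The 2 fits differ in power, and the part of blood cell RNA in these counts was not tested. Neither group of the Setdb1 OE comparison had a haemoglobin mean above 0.147 FPKM. Of the 6 spermatogonial markers, 1 rose and 4 fell in the knockout, and 1 rose and 5 fell with Setdb1 OE; their part in the zinc finger differences was not tested.

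**Figure D1:**
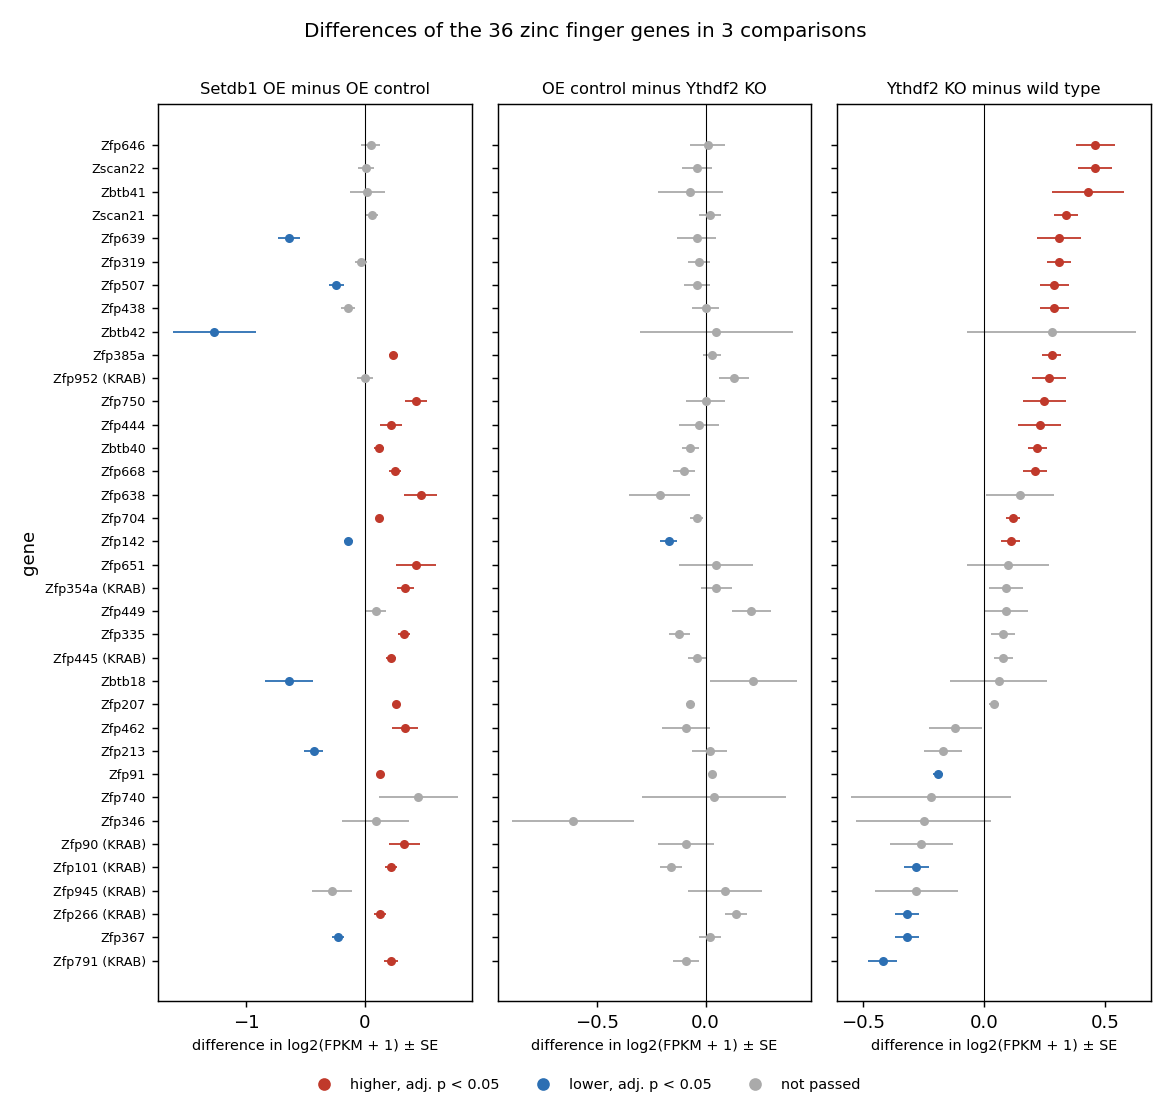
Difference in log2(FPKM + 1) with its SE for each of the 36 zinc finger genes (rows) in Setdb1 OE minus OE control (left), OE control minus Ythdf2 knockout (middle) and Ythdf2 knockout minus wild type (right); colours mark an adjusted p under 0.05, and the 3 axes have different scales. Most points of the middle panel are grey, Zfp142 being the 1 gene that passed there, while 25 passed on the left and 21 on the right.

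The KRAB genes were, on the median, lower in the knockout and higher with Setdb1 OE. Of the 8, 1 rose and 3 fell in the knockout, with a median of -0.27, and 6 rose and 0 fell with Setdb1 OE, with a median of 0.22 (unadjusted, also 6 and 0). Of the 28 genes without the pattern, 15 rose and 2 fell in the knockout, with a median of 0.18, and 12 rose and 7 fell with Setdb1 OE, with a median of 0.09. The 28 include Zfp438, Zfp449 and Zfp750, which met the level filter only through the knockout groups, as none of the 8 KRAB genes did. Zfp438 and Zfp750 are among the 15 that rose, so the filter favours a rise in this class. The shares over the whole tested table were 37.8% higher and 39.5% lower in the knockout, and 36.1% higher and 31.8% lower with Setdb1 OE, so the count of 3 in 8 that fell in the knockout is near the share of all tested genes. Whether the 2 classes differ was not tested. The letters of the pattern were set after these differences were known: 4 forms were tried, and the last is used here. The first form found 5 of the genes (1 rose and 2 fell in the knockout, median -0.28; 3 rose and 0 fell with Setdb1 OE, median 0.13, against 0.12 for the other 31), the second found none, and the third found 7 (1 and 3, median -0.28; 5 and 0, median 0.22). Zfp213 has a degenerate KRAB box that no form matched; counted with the 8, it made 6 that rose and 1 that fell with Setdb1 OE. Without the libraries with blood cell RNA the counts in the knockout were 0 and 3 (25.8% and 28.8% of the whole tested table) and those with Setdb1 OE 4 and 0 (35.6% and 31.5%). KRAB genes are a large family with similar finger repeats, and reads shared between relatives cannot be resolved in FPKM.

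Zfp791 fell most among the KRAB genes in the knockout. It stood at 1.95, 1.61 and 1.68 FPKM in knockout libraries, against 2.63, 2.85 and 2.56 FPKM in wild type, and the groups did not overlap (difference -0.42, SE 0.06, adjusted p = 5.61e-05, limma-trend). With Setdb1 OE it stood at 1.94, 2.05 and 1.98 FPKM, against 1.67, 1.64 and 1.43 FPKM in the OE control (0.22, SE 0.06, adjusted p = 0.00601). All 3 Setdb1 OE libraries thus lay above the OE control and below wild type. Zfp266 had 4.25, 4.29 and 4.26 FPKM in knockout libraries, against 5.63, 5.41 and 5.74 FPKM in wild type (-0.32, SE 0.05, adjusted p = 0.000115). With Setdb1 OE it had 5.63, 5.46 and 4.96 FPKM, against 5.14, 4.74 and 4.57 FPKM in the OE control, groups that overlapped (0.13, SE 0.05, adjusted p = 0.036); this call was lost when only the 6 libraries of the 2 groups were fitted, and on leaving out OE control library 2 or 3 or Setdb1 OE library 1 or 2 (adjusted p of 0.0909 to 0.129). Zfp101 had 4.53, 3.93 and 4.11 FPKM in knockout libraries, against 5.13, 5.49 and 5.33 FPKM in wild type (-0.28, SE 0.05, adjusted p = 0.000255), and it rose by 0.22 with Setdb1 OE (SE 0.05, adjusted p = 0.00195). These 3 KRAB genes and Zfp91 were the 4 zinc finger genes that fell in the knockout and rose with Setdb1 OE. Among all 36, 18 rose with Setdb1 OE. The share of all tested genes with this pair of calls was not counted.

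The other KRAB genes moved less evenly. Zfp354a, first described in kidney, had 2.9, 2.73 and 2.75 FPKM with Setdb1 OE, against 1.82, 1.97 and 2.19 FPKM in the OE control, without overlap (0.34, SE 0.07, adjusted p = 0.00123); in the knockout its difference was 0.09 (adjusted p = 0.227). Zfp445, which with ZFP57 maintains genomic imprints in mouse, had 9.92, 10.2 and 9.4 FPKM with Setdb1 OE, against 8.53, 8.6 and 7.9 FPKM in the OE control (0.22, SE 0.04, adjusted p = 0.000625). Its knockout libraries, at 8.59, 8.51 and 8.77 FPKM, lay just above wild type at 8.34, 7.91 and 8.07 FPKM, without passing the test (0.08, adjusted p = 0.081); it passed there under quantile normalization and under median-of-ratios scaling. Zfp90 overlapped between groups with Setdb1 OE (0.33, SE 0.13, adjusted p = 0.0465). It missed the threshold in fits without wild-type library 1, knockout library 2 or 3, OE control library 1 or 3, or Setdb1 OE library 1 or 3 (adjusted p of 0.055 to 0.145). Zfp952 had 3.02, 2.47 and 2.55 FPKM in knockout libraries, against 2.35, 1.95 and 1.88 FPKM in wild type (0.27, SE 0.07, adjusted p = 0.0056), and this was 0.08 without the libraries with blood cell RNA. Zfp945 passed in no comparison.

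**Figure D2:**
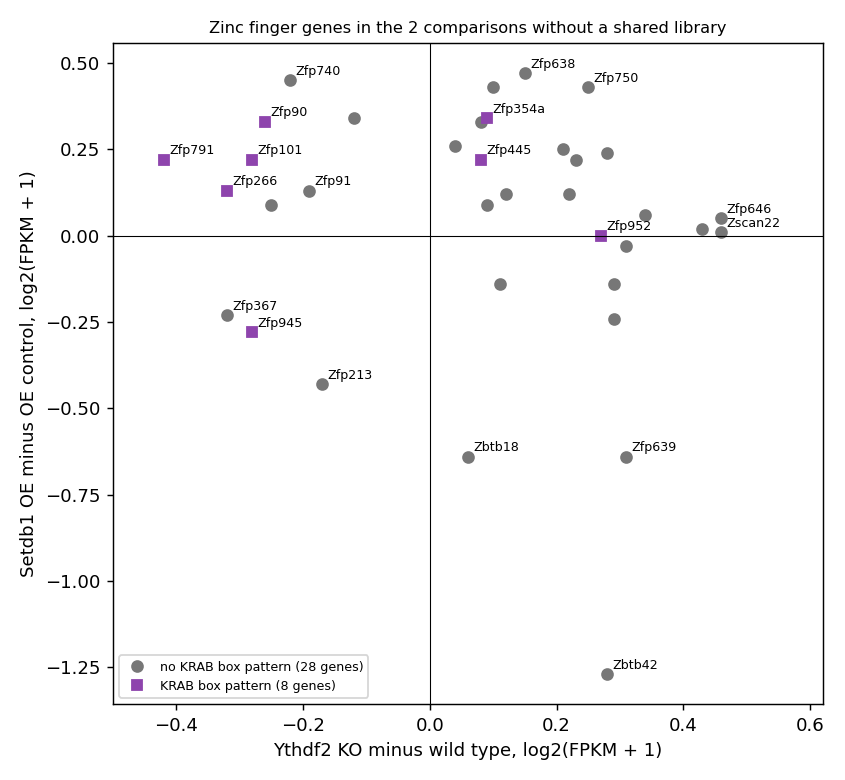
Difference in log2(FPKM + 1) of each of the 36 zinc finger genes in Ythdf2 knockout minus wild type (x axis) and in Setdb1 OE minus OE control (y axis), which share no library; squares are the 8 genes with a KRAB box pattern and circles the other 28. Zfp791, Zfp101 and Zfp266 lie at upper left, and Zbtb42, Zbtb18 and Zfp639 at the bottom.

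The silencing partners of KRAB proteins were represented by 9 of 36 listed genes. In the knockout 1 rose and 6 fell, and with Setdb1 OE 8 rose and 0 fell (unadjusted, also 8 and 0), with medians of -0.12 and 0.23. The shares over the whole tested table were 37.8% higher and 39.5% lower in the knockout, and 36.1% higher and 31.8% lower with Setdb1 OE. Without the libraries with blood cell RNA, 1 rose and 4 fell in the knockout, and 8 rose and 0 fell with Setdb1 OE. The riser in the knockout was Trim28, which encodes the corepressor that KRAB boxes bind. It had 55, 58.4 and 57.8 FPKM in knockout libraries, against 45.9, 47.6 and 47.6 FPKM in wild type (0.27, SE 0.02, adjusted p = 3.29e-06), and 65.4, 64.5 and 63.4 FPKM with Setdb1 OE, against 54.8, 54.6 and 54.6 FPKM in the OE control (0.23, SE 0.02, adjusted p = 1.66e-05). Uhrf1, which couples DNA methylation to replication, fell by 0.62 in the knockout (adjusted p = 1.89e-09) and rose by 0.23 with Setdb1 OE (adjusted p = 3.23e-06).

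Of the 5 genes with a SCAN pattern, 3 rose in the knockout, where 37.8% of the whole table rose, and the other 2 did not pass, with a median of 0.23. Zscan22 rose most, with 5.04, 4.92 and 5.18 FPKM in knockout libraries, against 3.39, 3.04 and 3.81 FPKM in wild type (0.46, SE 0.07, adjusted p = 0.000231). Zscan21, known as Zipro1 in cerebellar granule cell precursors, had 8.08, 6.86 and 7.55 FPKM in knockout libraries, against 5.59, 5.94 and 5.57 FPKM in wild type (0.34, SE 0.05, adjusted p = 0.00014). Neither group pair overlapped, and neither gene passed with Setdb1 OE (0.01 and 0.06, adjusted p = 0.925 and 0.287). Zfp444 rose in both comparisons, by 0.23 in the knockout (adjusted p = 0.0382) and by 0.22 with Setdb1 OE (adjusted p = 0.0482). The first call was lost without wild-type library 1 or 3 or knockout library 1 or 3, and the second without wild-type library 1 or 2, knockout library 3, OE control library 1 or 3, or Setdb1 OE library 1 or 2. Zfp213 had 1.05, 0.955 and 1.37 FPKM with Setdb1 OE, against 1.94, 1.68 and 1.93 FPKM in the OE control, without overlap (-0.43, SE 0.08, adjusted p = 0.0011).

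Promoter windows are shown for some genes picked because they passed in the knockout. Of these, Zscan22, Zscan21 and Zfp668 rose, and Zfp791 and Zfp367 fell. The window of Zfp266, which fell, was also picked and is not printed. The windows run from 250 bases before to 50 after the annotated start (RefSeq, GRCm38.p6), and 27 of the 36 genes have such a window. Capitals mark the GC box GGGCGG, the ETS motif CCGGAAG and the CCAAT box, on either strand; no marked matches overlap.
Zscan22, chr7:12897559-12897858, plus strand: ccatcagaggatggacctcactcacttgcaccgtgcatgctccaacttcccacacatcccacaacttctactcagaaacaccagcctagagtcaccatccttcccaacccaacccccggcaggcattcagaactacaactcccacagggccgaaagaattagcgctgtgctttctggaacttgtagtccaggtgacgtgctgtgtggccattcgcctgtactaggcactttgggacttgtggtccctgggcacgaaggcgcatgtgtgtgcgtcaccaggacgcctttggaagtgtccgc
Zscan21, chr5:138116655-138116954, plus strand: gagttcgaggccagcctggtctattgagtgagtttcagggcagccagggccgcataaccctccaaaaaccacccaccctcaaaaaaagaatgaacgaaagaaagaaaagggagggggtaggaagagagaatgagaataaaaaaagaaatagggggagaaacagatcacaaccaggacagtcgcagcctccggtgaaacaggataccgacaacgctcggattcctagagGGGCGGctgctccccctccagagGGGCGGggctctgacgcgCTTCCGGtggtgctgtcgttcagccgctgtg
Zfp668, chr7:127876787-127877086, minus strand: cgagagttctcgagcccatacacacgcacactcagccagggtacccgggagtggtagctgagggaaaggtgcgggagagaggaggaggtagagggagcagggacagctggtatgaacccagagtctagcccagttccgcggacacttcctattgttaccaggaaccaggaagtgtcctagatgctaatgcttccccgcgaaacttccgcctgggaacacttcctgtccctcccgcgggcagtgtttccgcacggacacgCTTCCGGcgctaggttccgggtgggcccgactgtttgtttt
Zfp791, chr8:85123046-85123345, minus strand: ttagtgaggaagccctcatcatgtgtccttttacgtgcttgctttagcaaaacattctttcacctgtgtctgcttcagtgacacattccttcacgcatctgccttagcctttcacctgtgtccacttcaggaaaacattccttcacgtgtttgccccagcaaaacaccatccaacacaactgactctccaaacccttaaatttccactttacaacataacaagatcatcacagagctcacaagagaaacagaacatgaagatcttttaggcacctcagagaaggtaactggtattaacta
Zfp367, chr13:64153150-64153449, minus strand: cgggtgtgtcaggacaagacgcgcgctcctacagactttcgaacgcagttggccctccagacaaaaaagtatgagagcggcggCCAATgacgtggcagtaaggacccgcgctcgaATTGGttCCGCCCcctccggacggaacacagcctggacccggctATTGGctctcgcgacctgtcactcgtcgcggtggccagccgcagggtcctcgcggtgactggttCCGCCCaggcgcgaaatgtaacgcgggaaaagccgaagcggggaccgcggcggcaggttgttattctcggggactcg
The windows of Zscan22 and Zfp791 hold none of the 3 motifs, Zscan21 holds 2 GC boxes and 1 ETS motif, and Zfp367 holds 2 GC boxes and 3 CCAAT boxes. Over the 27 windows the GC box occurred in 18 (66.7%), against 35.9% of 27025 genes with a window; the ETS motif occurred in 6 (22.2%), against 9.12%; and CCAAT in 8 (29.6%), against 37.9%. The 27025 genes were not limited to those tested here, and the shares among tested genes were not counted. Of the 11 windows of genes that rose in the knockout, 8 held a GC box and 4 an ETS motif. Of the 5 that fell, 2 and 1 did, and of the 11 that did not pass, 8 and 1. In all 9 motifs were searched, the other 6 being the TATA box TATAAA, the E-box CACGTG, the cyclic AMP element TGACGTCA, the E2F-like letters TTTCGCG and also TTTGGCG, and the repeat GCGCGC. Those in capitals, and the windows shown, were picked after values were seen, and no test was made.

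Zfp668 and Zfp646 stand head to head on chromosome 7, and the annotated start of Zfp646 lies in the Zfp668 window printed above. Zfp646 had 5.43, 4.78 and 5.53 FPKM in knockout libraries, against 3.94, 3.72 and 3.02 FPKM in wild type, without overlap (0.46, SE 0.08, adjusted p = 0.000529). Zfp668, linked in human cells to p53 regulation and DNA repair, had 2.38, 2.12 and 1.88 FPKM in knockout libraries, against 1.75, 1.68 and 1.68 FPKM in wild type (0.21, SE 0.05, adjusted p = 0.00352). Without the libraries with blood cell RNA, Zfp646 still passed (0.40, adjusted p = 0.0214) and Zfp668 did not (0.07, adjusted p = 0.359). With Setdb1 OE Zfp668 had 2.43, 2.44 and 2.49 FPKM, against 1.93, 1.92 and 1.86 FPKM in the OE control (0.25, SE 0.05, adjusted p = 0.00152), while Zfp646 differed by 0.05 (adjusted p = 0.591). In GENCODE M21 the 2 genes overlap on opposite strands.

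Zfp367 fell in both comparisons. It had 5.79, 6.02 and 6.24 FPKM in knockout libraries, against 8.13, 7.61 and 7.52 FPKM in wild type (-0.32, SE 0.05, adjusted p = 0.000228), and 4.71, 4.99 and 5.46 FPKM with Setdb1 OE, against 6.36, 6.19 and 5.79 FPKM in the OE control (-0.23, SE 0.05, adjusted p = 0.00236). Neither group pair overlapped. Zfp319 had 5.03, 4.82 and 4.94 FPKM in knockout libraries, against 3.66, 3.82 and 3.82 FPKM in wild type (0.31, SE 0.05, adjusted p = 0.000131), and did not pass with Setdb1 OE (-0.03, adjusted p = 0.549).

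Of 13 listed zinc finger genes linked to DNA damage, 3 were tested: Zfp385a, Zfp668 and Zbtb40. All 3 rose in the knockout and with Setdb1 OE, where 37.8% and 36.1% of all tested genes rose. Without the libraries with blood cell RNA, Zfp385a alone of the 3 passed in the knockout (0.27, adjusted p = 0.0187). Zfp385a, which in mouse binds p53 and steers it toward cell cycle arrest genes, was the highest of the 36. It had 29.6, 29.5 and 28.5 FPKM in knockout libraries, against 23.5, 23.3 and 24.8 FPKM in wild type (0.28, SE 0.04, adjusted p = 6.1e-05). With Setdb1 OE it had 33.5, 35.6 and 36.7 FPKM, against 29, 29.5 and 30.7 FPKM in the OE control (0.24, SE 0.04, adjusted p = 0.000258). The Setdb1 OE libraries were thus the highest and the wild-type libraries the lowest. Zbtb40 rose by 0.22 in the knockout (adjusted p = 0.000994, and 0.0781 without the libraries with blood cell RNA) and by 0.12 with Setdb1 OE (adjusted p = 0.0325), the second call being lost on leaving out OE control library 1 or 3 or Setdb1 OE library 1 or 3.

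Of 11 listed genes linked to RNA, ribosomes or the spindle, 4 were tested, of which 3 rose with Setdb1 OE, where 36.1% of the whole table rose: Zfp207, Zfp638 and Zfp91. Zfp207 (BuGZ), which loads the checkpoint protein Bub3 onto kinetochores, had 25.5, 26 and 26 FPKM with Setdb1 OE, against 21.6, 21.2 and 21.5 FPKM in the OE control (0.26, SE 0.02, adjusted p = 4.53e-06). Zfp638 (NP220), which in human cells recruits the HUSH complex and SETDB1 to unintegrated retroviral DNA, had 4.17, 3.18 and 3.87 FPKM with Setdb1 OE, against 2.2, 2.29 and 2.73 FPKM in the OE control (0.47, SE 0.14, adjusted p = 0.0125). Those groups did not overlap. In the knockout Zfp638 had 3.22, 2.6 and 2.99 FPKM, against 3.38, 2.56 and 1.87 FPKM in wild type, groups that overlapped (0.15, adjusted p = 0.362). In GENCODE M21, 3 genes annotated on the same strand overlap Zfp638.

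Zfp91, an E3 ubiquitin ligase of noncanonical NF-kB signalling, fell in the knockout and rose with Setdb1 OE. It had 21.1, 21.8 and 22.5 FPKM in knockout libraries, against 24.6, 25.1 and 25.2 FPKM in wild type (-0.19, SE 0.02, adjusted p = 5.51e-05). With Setdb1 OE it had 24.1, 24.6 and 25 FPKM, against 22.2, 22.6 and 22 FPKM in the OE control (0.13, SE 0.02, adjusted p = 0.000826). Neither group pair overlapped, and the Setdb1 OE values lay close to those of wild type. Zfp91 overlaps Cntf on the same strand. Zfp346 (JAZ), which binds double-stranded RNA, had 3.99, 3.66 and 4.1 FPKM with Setdb1 OE, against 5.34, 1.49 and 5.19 FPKM in the OE control, where library 2 was far below the other 2. Its difference was 0.09 (adjusted p = 0.78), and -0.35 without that library (adjusted p = 0.00014). In the same fit it also passed in the knockout (-0.25, adjusted p = 0.000355).

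**Figure D3:**
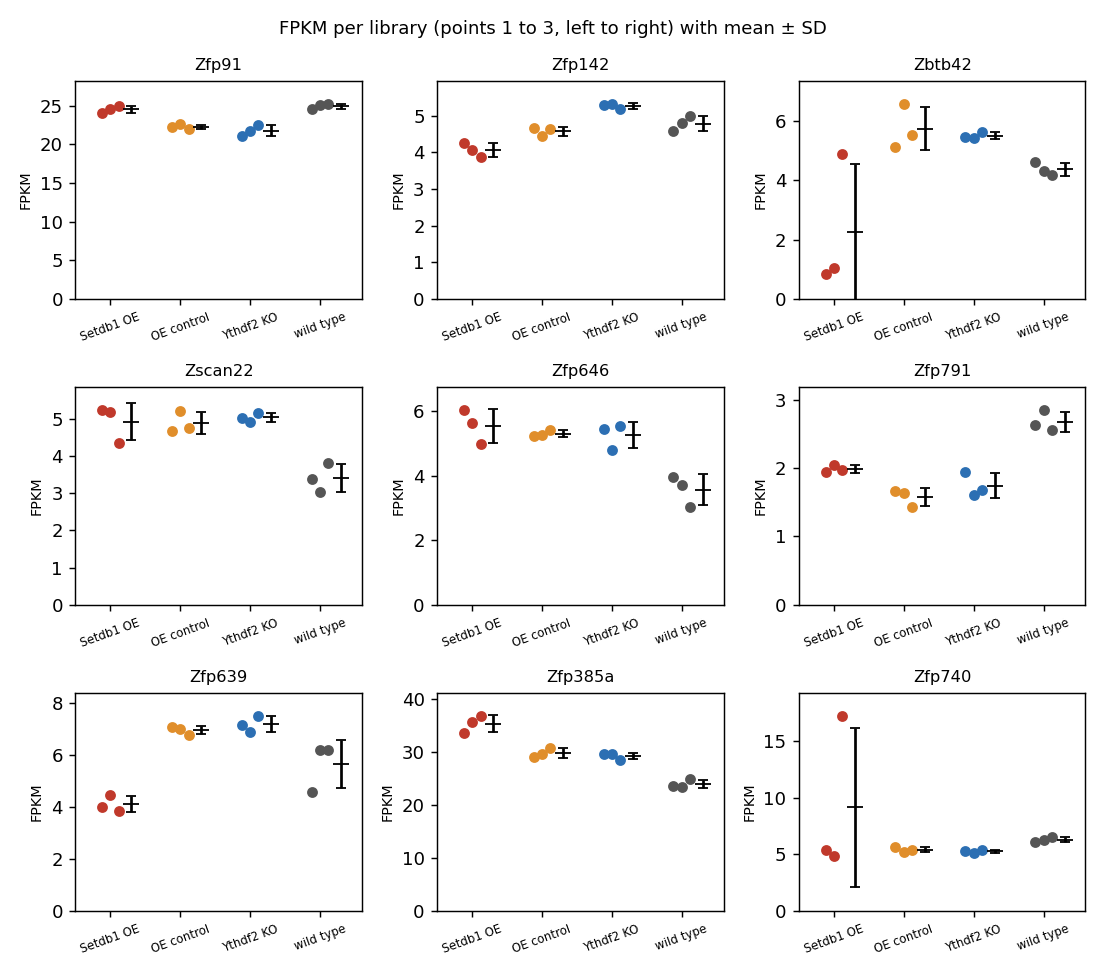
FPKM of 9 zinc finger genes in each library (points), with the group mean and SD beside them, for Setdb1 OE, OE control, Ythdf2 knockout and wild type from left to right; the lower SD bar of Zbtb42 with Setdb1 OE is drawn to 0. Zbtb42 and Zfp740 each have 1 Setdb1 OE library far from the other 2, and Zfp639 is low in all 3.

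The 4 Zbtb genes differed among themselves. Zbtb42, expressed in skeletal muscle, had 0.832, 1.03 and 4.89 FPKM with Setdb1 OE, against 5.14, 6.57 and 5.54 FPKM in the OE control. Libraries 1 and 2 were low and library 3 was close to the OE control, and the groups did not overlap (-1.27, SE 0.35, adjusted p = 0.00796); without library 3 the difference was -1.80 (adjusted p = 2.75e-07). Knockout libraries, at 5.45, 5.42 and 5.64 FPKM, lay above wild type at 4.61, 4.33 and 4.18 FPKM without passing (0.28, adjusted p = 0.477), and passed in a fit without Setdb1 OE library 3 (adjusted p = 0.00727) or of the 6 libraries alone. Zbtb18, a repressor needed in cortical neurons and muscle, had 6.07, 8.29 and 4.25 FPKM with Setdb1 OE, against 11.4, 8.4 and 10.1 FPKM in the OE control (-0.64, SE 0.20, adjusted p = 0.0171). This call was lost without OE control library 1 (adjusted p = 0.0623) or Setdb1 OE library 3 (-0.43, adjusted p = 0.0638). Zbtb41 had 9.02, 8.87 and 8.85 FPKM in knockout libraries, against 5.04, 9.16 and 5.48 FPKM in wild type, where library 2 lay above the knockout (0.43, SE 0.15, adjusted p = 0.0222). Without wild-type library 2 it was 0.67 (adjusted p = 3.77e-07), and without wild-type library 1 or 3, or knockout library 1, it missed the threshold (0.29, 0.34 and 0.42, adjusted p = 0.0896, 0.0845 and 0.0531).

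3 genes rose in the knockout and fell with Setdb1 OE: Zfp142, Zfp507 and Zfp639. The share of all tested genes with this pair of calls was not counted. Zfp639 had 4.01, 4.45 and 3.84 FPKM with Setdb1 OE, against 7.07, 7 and 6.78 FPKM in the OE control (-0.64, SE 0.09, adjusted p = 0.000114). In the knockout it had 7.17, 6.88 and 7.49 FPKM, against 4.57, 6.19 and 6.2 FPKM in wild type (0.31, SE 0.09, adjusted p = 0.00917), and 0.18 without wild-type library 1. All 3 Setdb1 OE libraries lay below all wild-type libraries. Zfp142 had 4.25, 4.06 and 3.87 FPKM with Setdb1 OE, against 4.66, 4.44 and 4.64 FPKM in the OE control (-0.14, SE 0.04, adjusted p = 0.00755). It was the 1 zinc finger gene that fell in the OE control, against 5.3, 5.31 and 5.17 FPKM in the unmodified knockout (-0.17, SE 0.04, adjusted p = 0.0266), and its knockout values lay above wild type at 4.57, 4.79 and 4.99 FPKM (0.11, adjusted p = 0.0184, and missed without wild-type library 1 or knockout library 2 or without the libraries with blood cell RNA). The call in the OE control was lost on leaving out any OE control library or knockout library 1 or 2. Zfp142 overlaps Plcd4.

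6 genes rose in both the knockout and with Setdb1 OE: Zbtb40, Zfp385a, Zfp444, Zfp668, Zfp704 and Zfp750. The share of all tested genes with such pairs of calls was not counted. Zfp750, which drives epidermal differentiation, had 2.11, 1.56 and 1.86 FPKM with Setdb1 OE, against 1.18, 1.02 and 1.14 FPKM in the OE control (0.43, SE 0.09, adjusted p = 0.0014). In the knockout it had 1.07, 0.897 and 1.38 FPKM, against 0.784, 0.732 and 0.78 FPKM in wild type (0.25, SE 0.09, adjusted p = 0.0205). It missed the threshold without knockout library 3 (0.17) or wild-type library 2 (0.24). It met the level filter only through the knockout groups, which favours a rise there. Another 8 rose with Setdb1 OE and did not pass in the knockout, among them Zfp651. It had 4.67, 5.18 and 4.62 FPKM with Setdb1 OE, against 3.79, 2.43 and 3.92 FPKM in the OE control (0.43, SE 0.17, adjusted p = 0.0407). That call was lost on leaving out any 1 wild-type or Setdb1 OE library, or OE control library 2, without which the difference was 0.26 (adjusted p of 0.0525 to 0.156). Zfp740 passed in no comparison over all 12 libraries. It had 5.38, 4.79 and 17.2 FPKM with Setdb1 OE, against 5.59, 5.22 and 5.4 FPKM in the OE control (0.45, adjusted p = 0.249), and -0.07 without Setdb1 OE library 3. In a fit without that library it passed in the knockout (-0.22, adjusted p = 0.00156). Zfp740 overlaps Csad on the other strand. Zfp346, Zfp449 and Zfp945 also passed in none of those comparisons.

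Further called genes included Zfp335, Zfp462 and Zfp507. Zfp335, which is mutated in a human microcephaly syndrome, had 12, 11.2 and 11.1 FPKM with Setdb1 OE, against 9.35, 8.9 and 8.42 FPKM in the OE control (0.33, SE 0.05, adjusted p = 0.00023). Zfp462, linked to heterochromatin at lineage genes in mouse embryonic stem cells, had 3.32, 3.14 and 2.95 FPKM with Setdb1 OE, against 2.52, 2.25 and 2.04 FPKM in the OE control (0.34, SE 0.11, adjusted p = 0.0159), a call lost without OE control library 3 or Setdb1 OE library 1. Zfp507 had 5.74, 6.9 and 5.9 FPKM with Setdb1 OE, against 7.63, 7.41 and 7.29 FPKM in the OE control (-0.24, SE 0.06, adjusted p = 0.00584). None of these 3 pairs of groups overlapped. Zfp507 also rose by 0.29 in the knockout (adjusted p = 0.00141), Zfp438 by 0.29 (adjusted p = 0.00142) and Zfp704 by 0.12 (adjusted p = 0.00906). Zfp438 met the level filter only through the knockout groups, which favours a rise there. Without the libraries with blood cell RNA, Zfp507 kept a difference of 0.31 and missed the threshold (adjusted p = 0.0555), and the difference of Zfp704 was 0.07 (adjusted p = 0.387).

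**Figure D4:**
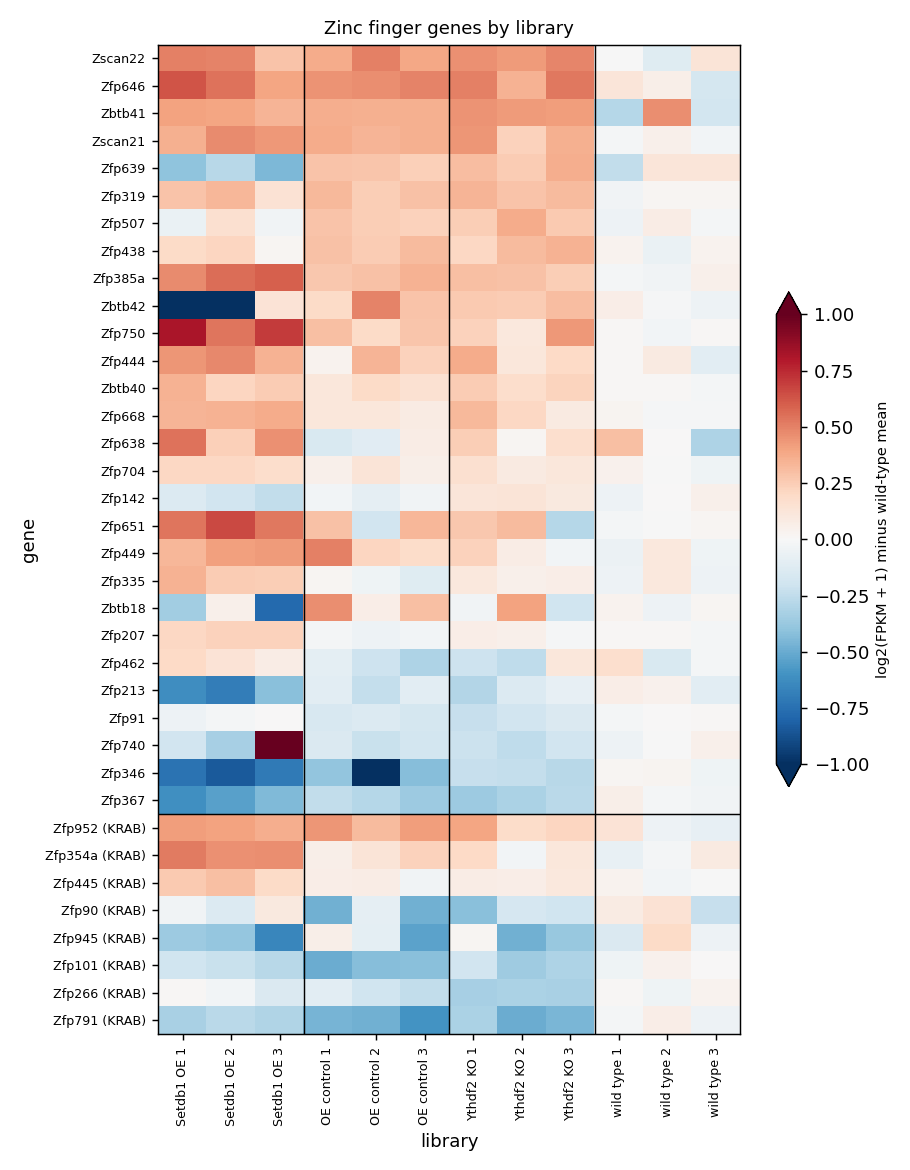
log2(FPKM + 1) minus the wild-type mean of each of the 36 zinc finger genes (rows) in each of the 12 libraries (columns, Setdb1 OE, OE control, Ythdf2 knockout and wild type from left to right), the KRAB genes below the line; colours saturate at a difference of 1. In knockout minus wild type 22 of the 28 upper rows are positive, and 5 of the 8 KRAB rows are negative. Of all 2063 tested genes, 1012 were positive and 1051 negative. The 22 include Zfp438, Zfp449 and Zfp750, which met the level filter only through the knockout groups.

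The spread between libraries of a group was larger than 1 on the log2(FPKM + 1) scale for 2 zinc finger genes with Setdb1 OE (Zbtb42 and Zfp740), for 1 in the OE control (Zfp346) and for 0 in the knockout and wild type. Over all tested genes that share was 0.582%, 0.63%, 0.776% and 1.26% in these groups. The median range within a group was 0.136 with Setdb1 OE, 0.115 in the OE control, 0.132 in the knockout and 0.103 in wild type for the zinc finger genes, against 0.0839, 0.0835, 0.0878 and 0.0865 for all tested genes.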

How the data were processed

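Per the labels, total RNA of the 12 samples went into libraries by Illumina's standard protocol. The submitters' processing notes list HISAT2, StringTie, cutadapt, DESeq2 and edgeR, without role or version. The authors deposited FPKM values of 2281 genes, and beside them a deposited p-value and q-value whose comparison is not named. Their genome build: not given in the sources used here. All 2281 gene IDs matched a symbol.

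Values were analysed as log2(FPKM + 1), with pseudocount 1, which understates changes of low genes. Genes at 1 FPKM or more in at least 3 libraries were tested (2063; 218 were left out). limma-trend (limma 3.58.1, R 4.3.3) was fitted over all 12 libraries with 1 mean per group and checked on simulated data. P-values were two-sided, with Benjamini-Hochberg adjustment over the 2063 genes and a threshold of 0.05. Depth is unknown, so no counting interval is given. Genes described in full were the markers Zfp91, Zfp142 and Zbtb42, Zfp638 and, per comparison, the 8 largest called differences; others were picked by role or after their values were seen. The zinc finger genes and lists were chosen with earlier results of these data known, and the KRAB pattern, motifs and windows after the differences were seen. Alternatives covered pseudocount, filter, scaling, model, replicate block and left-out libraries.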

Additional observations from a re-analysis of the deposited data

How the results depend on the processing

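Direction was read only for differences past the threshold in at least 1 fit. In the knockout against wild type, 9 zinc finger genes rose at a minimum of 5 FPKM, where 20 were tested, and 9 without the libraries with blood cell RNA. With Setdb1 OE 8 of 20 rose at the minimum of 5 FPKM. Over all 1641 genes tested at that minimum, 632 rose in the knockout and 608 with Setdb1 OE. In the OE control against the knockout, 0 zinc finger genes fell with quantile normalization, with the replicate block, with a term for libraries with blood cell RNA and without those libraries. All genes called there numbered 179 as reported and 106 in a fit of the 6 libraries alone, 66 with that term and 41 without those libraries; rises made up 41.9% of these calls, 50.5% with median-of-ratios scaling and 52.7% with quantile normalization. Among KRAB genes, alternatives added after seeing the data gave 0 that rose in the knockout at 5 FPKM and without those libraries, 2 with either scaling, and 3 that rose with Setdb1 OE at 5 FPKM, where 3 were tested. Zfp346 with Setdb1 OE ran from -0.35 without OE control library 2 to 0.32 without OE control library 1; the cause was not tested.

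On leaving out 1 library at a time, zinc finger genes that rose in the knockout numbered 13 to 17 and those that fell 5 to 7, with 1526 to 1599 genes called in all. In the OE control the numbers were 0 to 0, 0 to 2 and 93 to 168, and with Setdb1 OE 12 to 18, 6 to 8 and 1305 to 1402. For KRAB genes they were 1 to 1 and 3 to 4 in the knockout, 0 to 0 and 0 to 1 in the OE control, and 4 to 6 and 0 to 1 with Setdb1 OE. Of the calls, 17 of 21 in the knockout, 0 of 1 in the OE control and 18 of 25 with Setdb1 OE were kept in every such fit. Replicate numbers did not pair the libraries: deviations of same-numbered knockout and wild-type libraries correlated at -0.7, 0.41 and -0.5. Knockout library 3 correlated with wild-type library 1 at 0.77, and knockout library 1 with wild-type libraries 2 and 3 at 0.64 and 0.43. Values were positive where both libraries, or neither, carried blood cell RNA, and negative otherwise. The main fit takes these deviations as independent. With the replicate block the knockout calls of zinc finger genes lost Zfp444, and the Setdb1 OE calls lost Zfp444, Zfp651 and Zfp90. Low FPKM values limit precision, and depth is unknown.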

Other observations

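Genes listed as C2H2 factors outside the Zfp, Zbtb and Zscan symbols were followed in 24 tested genes. The 24 include Znfx1, which entered by its symbol prefix and encodes a helicase, not a C2H2 factor. It is counted below among those that rose in the knockout and those that fell with Setdb1 OE. In the knockout 9 rose and 9 fell, with a median of -0.01, and with Setdb1 OE 3 rose and 12 fell, with a median of -0.13. The 9 that rose include Gli2 and Zic1, which lay under 1 FPKM in all wild-type libraries. Both met the level filter only through the knockout groups, so their inclusion depended on being higher there. The shares over the whole tested table were 37.8% higher and 39.5% lower in the knockout, and 36.1% higher and 31.8% lower with Setdb1 OE. Among those that fell with Setdb1 OE were Snai2, a regulator of epithelial-mesenchymal transition (8.59, 7.4 and 7.6 FPKM with Setdb1 OE, against 14.5, 14.1 and 13.2 FPKM in the OE control; -0.75, adjusted p = 5.2e-07 in limma-trend), and the Krüppel-like factor gene Klf4 (66.7, 65.6 and 64.5 FPKM with Setdb1 OE, against 91.6, 90.8 and 97.9 FPKM in the OE control; -0.50, adjusted p = 3.07e-07). Znfx1, a helicase gene of the antiviral response, rose in the knockout (8.42, 8.32 and 8.29 FPKM in knockout libraries, against 4.5, 4.56 and 4.41 FPKM in wild type; 0.77, adjusted p = 2.73e-09). These genes were picked after their values were seen.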
